A study of Mus musculus with 6 samples.

Results

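Between the β-adrenergic receptors and the effects of cyclic AMP stand 3 kinds of protein, and the 10 genes described here encode members of each. They are the G-protein α subunits Gnas, Gnai1 and Gnai3, the adenylyl cyclases Adcy3, Adcy5, Adcy6, Adcy7 and Adcy9, and the Epac genes Rapgef3 and Rapgef4. They were chosen by name from 32739 genes, as parts of the cyclic AMP pathway, with earlier results of these data known, and their values were not used to pick them. All 10 were found in the files by their gene symbols. The other genes of the pathway were taken from fixed lists of 78 genes.

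When a receptor is bound by an agonist, the Gs α subunit binds GTP and stimulates adenylyl cyclase, which makes cyclic AMP from ATP, whereas Gi α subunits inhibit several of the cyclases. Cyclic AMP then activates protein kinase A and, separately, the Epac proteins, which load the small GTPases Rap1 and Rap2 with GTP. In heart muscle this chain raises the rate and force of contraction, and the β3-adrenergic receptor is known for coupling to Gi as well as Gs.

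HL-1 is a line of mouse atrial muscle cells, grown here in Claycomb medium. By the series' account, its RNA was sequenced after hypoxia for 6 h and reoxygenation for 1 h. The sample descriptions name reoxygenation alone with a longer time, which was taken here as the total of both. In 3 samples labelled BRL the medium had received BRL37344 (BRL, 5 µM), a β3-adrenergic agonist by the series' account, and in 3 samples labelled vehicle it had received vehicle. Both groups went through hypoxia and reoxygenation, so no group shows the cells at rest, and all libraries come from 1 cell line. The labels give neither the time at which BRL was added nor whether replicates were grown as separate cultures, so p-values reflect variation among these samples that could be technical alone.

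Libraries held between 4440168 and 8332472 expected counts, and every BRL library was deeper than every vehicle library. BRL replicate 1 stood apart from the other libraries, with 5.03% of its counts from mitochondrially encoded genes against 16.5% to 21.9% in the other 5, so the fold changes of the 8 tested genes are plotted with and without it. The label of the cells was checked against markers. All 12 cardiomyocyte markers had at least 208 counts in every library, while 3 of 8 fibroblast, 1 of 7 endothelial and 3 of 7 leukocyte markers were at 0 in all 6, among them Dcn, Emcn and Ptprc. Of 6 smooth muscle markers, Acta2 and Tagln were abundant and Myh11 had at most 2 counts. Summed cardiomyocyte markers were 10926 to 11870 CPM in vehicle and 6738 to 8476 CPM in BRL, and summed smooth muscle markers 3065 to 3462 and 1271 to 2648 CPM. The cardiomyocyte sum was carried mainly by Myh6 (mean 3336 against 1329 CPM) and Atp2a2 (3332 against 2519 CPM). Pln, Actc1 and Myl4 were also lower in every BRL library than in every vehicle library, with log2 fold changes of −1.52, −0.89 and −0.44. Of all genes tested, 15.5% showed this pattern and 16% the opposite one. In contrast, Tnni3 was higher in every BRL library than in every vehicle library, with a log2 fold change of 0.18. The groups overlapped for Nkx2-5, Gata4 and Tnnt2, with log2 fold changes of 0.38, 0.22 and −0.05. They also overlapped for Ryr2, Nppa and Myl7, at −0.15, −0.06 and −0.16. In the same order, the endothelial sums were 23.1 to 30.9 and 28.3 to 59.8 CPM, the fibroblast sums 3.99 to 6.08 and 3.31 to 4.15 CPM, and the leukocyte sums 2.91 to 4.41 and 2.25 to 5.13 CPM. Most of the endothelial sum was Egfl7 (mean 22.4 against 44.5 CPM), and Pecam1 and Vwf had log2 fold changes of −0.63 and −0.14. Their part in the results below was not tested, and in bulk RNA fewer cells of a type and less RNA per cell cannot be told apart.

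The Gs gene, 1 of the 2 Gi members, 4 of the 5 cyclases and both Epac genes had enough counts to be tested. None of these 8 genes passed the threshold for a difference between BRL and vehicle. The test was edgeR's quasi-likelihood test on the counts of all genes, with Benjamini-Hochberg adjustment and a threshold of 0.05. It called 2.81% of the 12047 genes tested, 1.01% higher and 1.79% lower, against 0 of the 8. At an unadjusted p under 0.05 there was 1 of the 8 (Adcy6), beside 22.4% of all genes. DESeq2, the edgeR exact test and limma-voom also called none of the 8, and no member passed when any single library was left out. The median log2 fold change of the 8 was −0.06, with a range of −0.37 to 0.21, and the median over all genes tested was 0.01. Gnai1 and Adcy7 fell below the filter on low counts. The plot of levels by library shows all 10 genes.

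**Figure D1:**
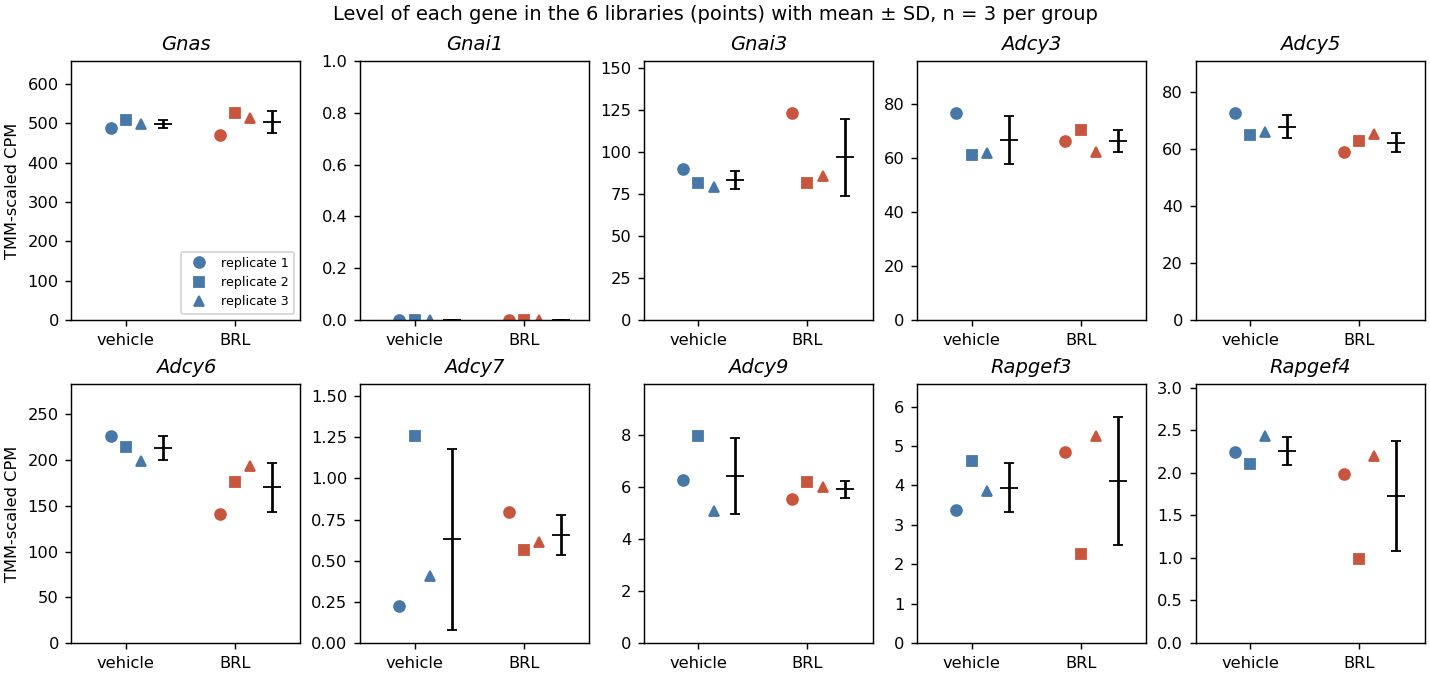
Level of each of the 10 genes in counts per 1000000 scaled by library factors (CPM, linear axis from 0, each panel with its own scale), with a point for each library and the mean ± SD of the 3 libraries of a group beside it. Vehicle and BRL libraries overlap in every panel except that of Adcy6, and Gnai1 has no counts.

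Gnas (ENSMUSG00000027523) encodes the Gs α subunit, and its locus is also known for imprinted transcripts with other first exons, which the gene-level counts do not separate. It measured 489, 509.6 and 499 CPM in vehicle replicates 1, 2 and 3 and 471, 527 and 513 CPM in BRL replicates 1, 2 and 3. CPM here are counts per 1000000 scaled by TMM library factors. The lowest and the highest library were both BRL libraries, and the groups overlapped. The log2 fold change was 0.01 ± 0.10 (SE, edgeR adjusted p = 0.958), with a 95% interval of the fold from 0.867 to 1.172. Gnas was the most precisely measured of the 10 genes, with 2182 to 4198 counts a library.

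Some reads of Gnas may have been counted elsewhere. Gm20721, an annotated gene on the opposite strand whose transcript matches Gnas at 99.3% identity over 1486 bases, had 0 counts in each vehicle library and 145, 115 and 86.4 counts in BRL replicates 1, 2 and 3. The counts of Gnas were whole in vehicle and not whole in BRL. With the counts of Gm20721 and of Nespas, the other overlapping gene, added to Gnas, the log2 fold change was 0.06 in place of 0.01 and still did not pass (edgeR adjusted p = 0.771).

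Of the Gi α subunits, Gnai1 (ENSMUSG00000057614) had 0 counts in all 6 libraries, 0 of 37034688 counts together. A count of 0 allows up to 3 counts, or 0.360 to 0.676 CPM per library without the TMM factors. This is an upper limit for counting error only. Gnai3 (ENSMUSG00000000001) measured 89.5, 81.6 and 79.1 CPM in vehicle and 123, 81.1 and 85.7 CPM in BRL replicates 1, 2 and 3. BRL replicate 1 was higher than all other libraries, and BRL replicates 2 and 3 lay within the vehicle range. The log2 fold change of 0.21 ± 0.16 (SE) did not pass (edgeR adjusted p = 0.477), and without BRL replicate 1 it was 0.01 ± 0.08 (adjusted p = 0.962). The size of the difference in Gnai3 therefore rested on that library.

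The most abundant adenylyl cyclase by count was Adcy6 (ENSMUSG00000022994), which with Adcy5 forms the pair of calcium-inhibited cyclases known as the main forms of heart muscle. Adcy6 measured 226, 214 and 199 CPM in vehicle and 141, 176 and 194 CPM in BRL. Every BRL library was below every vehicle library, by a narrow margin for BRL replicate 3, which is a pattern that 15.5% of all genes tested showed. The log2 fold change was −0.32 ± 0.13 (SE, edgeR adjusted p = 0.192), a fold of 0.799 with a 95% interval from 0.651 to 0.981 that is not adjusted for the number of genes. Without BRL replicate 1, the lowest library, the log2 fold change was −0.20 ± 0.07 (adjusted p = 0.0755). Over 17 alternative analyses the log2 fold change of Adcy6 stayed between −0.42 and −0.20, and its adjusted p between 0.0755 and 0.573.

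Adcy5 (ENSMUSG00000022840) measured 72.6, 65.03 and 65.9 CPM in vehicle and 58.8, 62.6 and 65.2 CPM in BRL. BRL replicate 3 lay between the vehicle libraries, so the groups overlapped. Its log2 fold change was −0.12 ± 0.10 (SE, edgeR adjusted p = 0.492), with a 95% interval of the fold from 0.785 to 1.07. Adcy3 (ENSMUSG00000020654), a cyclase best known from olfactory neurons and primary cilia, measured 76.6, 60.9 and 61.9 CPM in vehicle and 66.2, 70.4 and 62.1 CPM in BRL. All BRL libraries lay within the vehicle range. The log2 fold change of Adcy3 was −0.005 ± 0.12 (adjusted p = 0.988, 95% interval of the fold 0.825 to 1.20). Its counts were not whole in any library, and its exons overlap those of Cenpo on the opposite strand. Cenpo had 178 to 345 counts a library, beside 290 to 508 of Adcy3. With the counts of Cenpo added to Adcy3, the log2 fold change was −0.076 and did not pass (edgeR adjusted p = 0.697). How far the overlap shifts the level of Adcy3, here and in the comparisons below, was not tested.

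The remaining cyclases were low. Adcy9 (ENSMUSG00000005580), a widely expressed form that responds weakly to forskolin, measured 6.28, 7.97 and 5.07 CPM in vehicle and 5.56, 6.19 and 5.99 CPM in BRL, with 25 to 49 counts a library. Its groups overlapped, and the 95% interval of the fold, 0.633 to 1.34, was wider than for the abundant cyclases (edgeR adjusted p = 0.800). Adcy7 (ENSMUSG00000031659), known mainly from blood cells, had 1, 6 and 2 counts in vehicle and 6, 4 and 5 in BRL. These counts lie near the limit of 3 counts, too few for a difference between the groups to be seen.

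Both Epac genes were near the lower end of what could be tested. Rapgef3 (ENSMUSG00000022469), which encodes Epac1, the form known as the more widely expressed, measured 3.36, 4.62 and 3.85 CPM in vehicle and 4.85, 2.25 and 5.25 CPM in BRL. BRL libraries were both above and below all vehicle libraries. Its log2 fold change was 0.07 ± 0.36 (SE, edgeR adjusted p = 0.928, 95% interval of the fold 0.597 to 1.86). Rapgef4 (ENSMUSG00000049044), which encodes Epac2, known mainly from brain and endocrine cells, measured 2.24, 2.098 and 2.43 CPM in vehicle and 1.99, 0.985 and 2.20 CPM in BRL. BRL replicate 2 had the lowest level of both Epac genes, with 16 counts of Rapgef3 and 7 of Rapgef4. The log2 fold change of Rapgef4 was −0.37 ± 0.38 (adjusted p = 0.606), and its 95% interval of the fold, 0.421 to 1.41, holds both a fall to less than 0.5 and a rise.

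**Figure D2:**
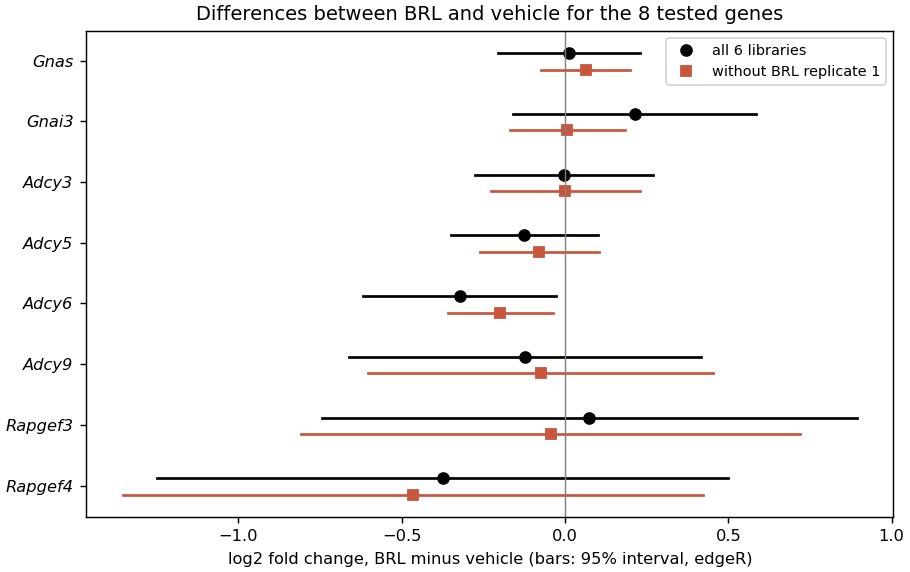
Log2 fold change between BRL and vehicle for the 8 tested genes, with 95% intervals from edgeR's quasi-likelihood fit of all 6 libraries (black circles) and of 5 libraries without BRL replicate 1 (red squares). The interval of Adcy6 excludes 0 in both fits before adjustment over all genes, Gnai3 moves from 0.21 to 0.01, and the Epac genes have the widest intervals.

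Levels of different genes were compared on the deposited RSEM fraction, a share of transcripts that takes transcript length into account, given here as TPM (transcripts per 1000000). Gnas led in every library, with 439 to 569 TPM. Adcy6 followed with 40.5 to 60.3, and Gnai3 had 34.6 to 76.7. Adcy6 was above Gnai3 in 5 of 6 libraries and below it in BRL replicate 1, so these neighbours did not differ beyond their spread. Adcy3 (20.9 to 30.3) and Adcy5 (12.4 to 16.9) came next and did not overlap with each other or with their neighbours. Rapgef3 (2.53 to 10.3) stood above Adcy9 (1.73 to 2.69) in all 6 libraries, although their ranges overlapped, and Adcy9 stood above Rapgef4 (0.643 to 2.76) in 3 of 6. Adcy7 (0.0605 to 0.318) was below all of these, and Gnai1 was at 0.

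**Figure D3:**
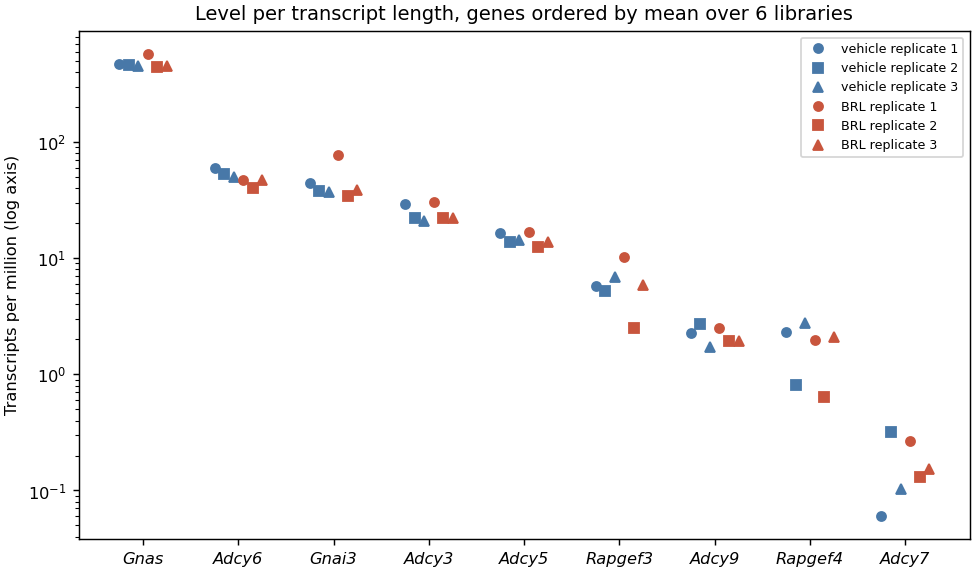
Level per length in TPM (log axis) of the 9 genes with counts, ordered by their mean over the 6 libraries, with a point per library. Gnas lies near 474 on average, the detected cyclases span from 49.9 for Adcy6 to 0.172 for Adcy7, and the points of Rapgef4 are the most scattered of the tested genes.

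The place of the Epac genes in this order was the least certain. From counts and fractions, the mean transcript length that RSEM had assigned can be derived, and for Rapgef4 it went from 1355 bases in vehicle replicate 3 to 3906 bases in vehicle replicate 2, a ratio of 2.88, although these libraries held 12 and 10 counts. For Rapgef3 it ranged from 854 to 1357 bases, a ratio of 1.59, and for every other detected gene the ratio was at most 1.08. With the longest annotated transcript as the length of each gene in place of this, Adcy9 and Rapgef3 exchanged places and the other 8 genes kept theirs.

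Within a library, shares of a family do not depend on how libraries are scaled. Of the summed transcripts of the 10 adenylyl cyclase genes, Adcy6 made up 53.0%, 55.8% and 54.5% in vehicle and 47.1%, 51.0% and 54.3% in BRL replicates 1, 2 and 3. Adcy3 made up 22.8% to 30.1% and Adcy5 14.6% to 16.8% over all libraries, so Adcy6, Adcy3 and Adcy5 came in this order in each. The share of Adcy5 was 14.6%, 14.6% and 15.5% in vehicle and 16.8%, 15.6% and 15.7% in BRL, with no overlap. The ratio of Adcy6 to Adcy5 was 3.63, 3.84 and 3.53 in vehicle and 2.80, 3.28 and 3.46 in BRL, again with no overlap, BRL replicate 3 being close to the vehicle range. The ratio of Adcy6 to Adcy3 was 2.06, 2.41 and 2.39 in vehicle and 1.56, 1.82 and 2.16 in BRL, and there the groups overlapped.

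Among the α subunits of Gs and Gi, Gnas made up 76.7%, 78.7% and 78.2% of transcripts in vehicle and 73.7%, 73.6% and 73.9% in BRL replicates 1, 2 and 3. The ratio of Gnas to the summed Gi genes was 3.32, 3.72 and 3.61 in vehicle and 2.81, 2.80 and 2.85 in BRL, so that every BRL library was lower, and with Gm20721 counted as Gnas the BRL ratios were 2.94, 2.90 and 2.92. The family shares and ratios were chosen after their values were seen and are a description, with no test. Their lack of overlap was not set against shares or ratios of other genes. The main Gi transcript was Gnai2, which is outside the 10 genes and made up 62.1% to 77.9% of the Gi sum. Gnai2 measured 130.3, 123 and 126 CPM in vehicle and 132, 189 and 174 CPM in BRL. It did not pass (log2 fold change 0.39, edgeR adjusted p = 0.149), and without BRL replicate 1 it did (0.53, adjusted p = 0.000197). That was the only 1 of 17 alternatives in which Gnai2 passed, and that fit called 21.2% of all genes tested. The ratio of Gnai2 to Gnai3 was 2.20 to 2.41 in vehicle, and it was 1.64, 3.53 and 3.09 in BRL replicates 1, 2 and 3, so BRL replicate 1 lay below the vehicle range and the other BRL libraries above it.

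**Figure D4:**
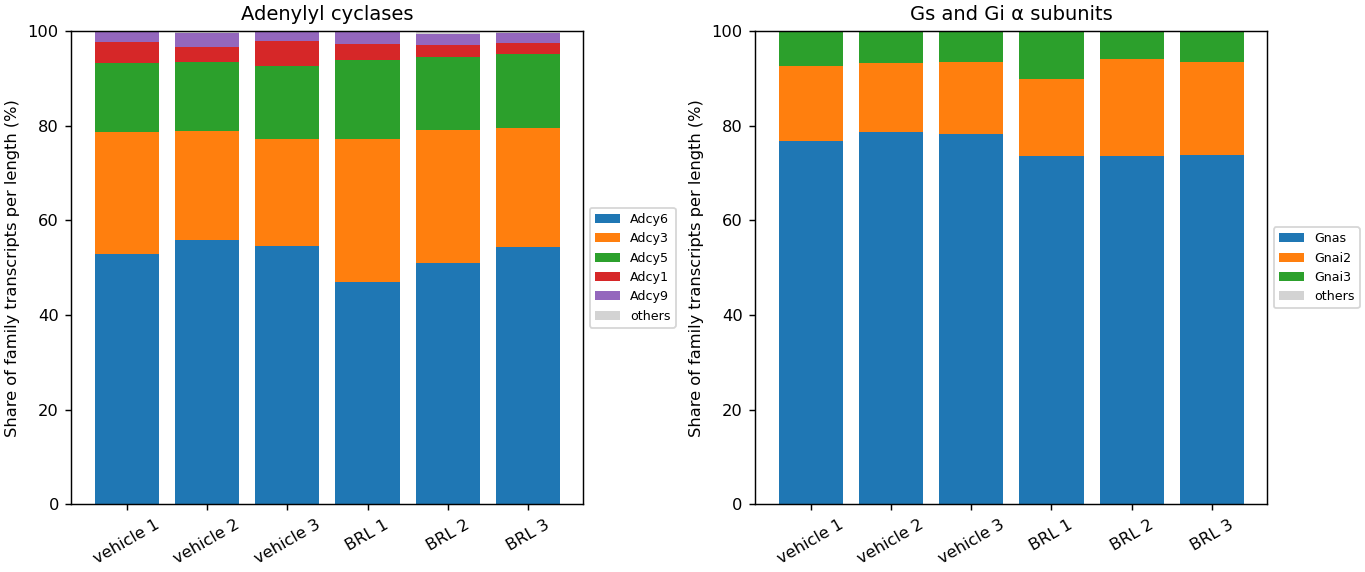
Share of each gene in the summed transcripts per length of its family in each library, for the adenylyl cyclases (left) and the Gs and Gi α subunits (right), in percent of the family. Adcy6, Adcy3 and Adcy5 make up most of the cyclase transcripts in every library, and Gnas makes up 73.6% to 78.7% of the α subunits shown.

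The other genes of the pathway were read beside the 10. Of 78 further genes, 53 were tested, 1 rose, 1 fell and 51 did not pass, beside 2.81% called of all genes tested, and their median log2 fold change was −0.05. Of 13 other G α subunits, 10 were tested, 1 rose and none fell. This was Gnat1, the α subunit of rod transducin, at 1.57, 1.05 and 1.42 CPM in vehicle and 11.3, 17.3 and 21.3 CPM in BRL (log2 fold change 3.61 ± 0.34, edgeR adjusted p = 0.00265), and it passed in all 17 alternatives. Gna13, the most abundant of this list by counts, did not pass (146 ± 8.36 against 148 ± 29.7 CPM, SD, n = 3 each), and its log2 fold change was 0.02 with all libraries and −0.14 without BRL replicate 1.

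Of 5 other adenylyl cyclases only Adcy1 had enough counts, and Adcy2, Adcy4, Adcy8 and Adcy10 had at most 2 counts in any library. Adcy1, a calcium- and calmodulin-stimulated cyclase known mainly from neurons, measured 30.9, 25.8 and 28.8 CPM in vehicle and 20.1, 15.2 and 12.8 CPM in BRL, with no overlap. It fell by 0.83 ± 0.18 on the log2 scale, just past the threshold (edgeR adjusted p = 0.0493). Adcy1 made up 3.29% to 5.17% of cyclase transcripts in vehicle and 2.30% to 3.28% in BRL. The call did not hold without vehicle replicate 1, 2 or 3 (adjusted p of 0.189, 0.167 and 0.235) or without BRL replicate 2 or 3 (0.125 and 0.0921), and it held without BRL replicate 1 (log2 fold change −1.02, adjusted p = 0.000207). Adcy1 was lower in BRL in all 17 alternatives, of which 7 passed, with adjusted p from 0.000207 to 0.336.

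None of 11 tested genes for Gβ and Gγ subunits, 8 for chaperones and regulators of Gα, 17 for Rap GTPases and their regulators, or 6 for cyclic AMP binding and efflux passed by edgeR. At an unadjusted p under 0.05 there were 2, 0, 4 and 1 of these genes, beside 22.4% of all genes tested, and limma-voom called none of them. Among those named here, DESeq2 called Gng2, and the edgeR exact test called Gng2 and Sipa1l1. Gng2, a Gγ subunit, had 104 ± 4.41 CPM in vehicle against 75.5 ± 9.04 CPM in BRL (SD, n = 3 each, edgeR adjusted p = 0.0682). On the RSEM fraction, which takes length into account and carries no TMM factors, Gng2 had 61.0 ± 1.34 against 60.4 ± 8.46 TPM. The log2 difference there was −0.02 in limma. What part length and library scaling had in this was not tested. Sipa1l1, which inactivates Rap GTPases, measured 43.2 ± 3.00 and 30.96 ± 2.34 CPM (adjusted p = 0.0589). The regulator of G-protein signalling Rgs6 had adjusted p = 0.253. The most abundant genes by counts of these lists, Gnb1, Gpsm1, Rap1a and Popdc2, had log2 fold changes between −0.24 and 0.21 and adjusted p between 0.285 and 0.767. Without BRL replicate 1, Popdc2 went from −0.24 to −0.07, Gnb1 from 0.21 to 0.12, Rap1a from 0.18 to 0.10 and Gpsm1 from −0.08 to 0.03.

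**Figure D5:**
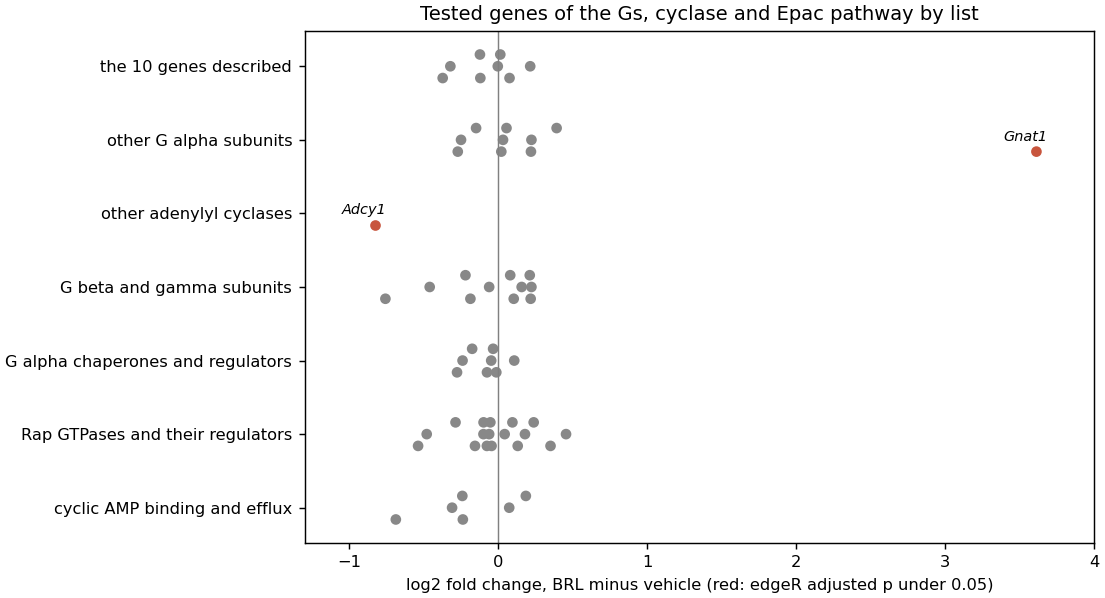
Log2 fold change between BRL and vehicle of each tested gene, by list, with genes past the edgeR threshold in red and the others in grey (vertical scatter within a row has no meaning). Gnat1 at 3.61 and Adcy1 at −0.83 are the only red points, and the 8 tested genes of the top row lie between −0.37 and 0.21.

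Without BRL replicate 1, the same fit called 21.2% of 12064 genes, 10.3% higher and 10.9% lower. None of the 8 tested genes was among them. Of the 54 other pathway genes then tested, 6 rose and 6 fell. Gnai2, Gna11, Gnat1, Gnb2, Rap2b and Hcn2 were higher, and Adcy1, Gng2, Rapgef6, Sipa1l1 and Plce1 were among those lower. Plce1, a phospholipase C that Rap GTPases activate, had a log2 fold change of −0.58 (edgeR adjusted p = 0.0242), and Rapgef6, an exchange factor for Rap, −0.35 (adjusted p = 0.0100). In this fit the 95% interval of the log2 fold change was −0.07 to 0.20 for Gnas and −0.17 to 0.18 for Gnai3.

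Over the 6 libraries, the genes whose log2 CPM followed that of Adcy6 most closely were Arap2, Perm1 and Tulp4, with Pearson correlations of 0.997, 0.995 and 0.995 over 6 libraries that share 2 groups and the deviation of BRL replicate 1. With so few libraries 172 genes had a correlation above 0.95, so the order among them carries little. Arap2 had 63.6 ± 4.16 CPM in vehicle against 48.6 ± 8.85 CPM in BRL (SD, n = 3 each) and, like Adcy6, did not pass (edgeR adjusted p = 0.171).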

How the data were processed

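Libraries were made from total RNA of HL-1 cells with the TruSeq RNA kit, per the labels' protocols. Per the submitters' processing notes, cutadapt, Bowtie, RSEM 1.17 and edgeR were used with build NCBIM37, with settings and strandedness not given in the sources used here. Deposited by the authors were RSEM expected counts and, per gene, a fraction that sums to 1 in each library. For 973 genes with a single transcript, counts divided by the deposited fraction tracked transcript length (Pearson correlation of logs across genes 0.914), so the fraction was used as a level per length and multiplied by 1000000. The authors' deposited series table holds log2 values and served as 1 alternative.

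After rounding, the expected counts entered edgeR 4.0.16 (R 4.3.3): filterByExpr at a minimum count of 10, TMM factors, and a quasi-likelihood F-test on the group term alone, with Benjamini-Hochberg adjustment over 12047 genes at 0.05. Dividing the size of the log2 fold change by the root of its F gave standard errors, from which 95% intervals followed. Alternatives used DESeq2 1.42.0, limma 3.58.1, other filters and scalings, thinned counts, matching genes summed with their member (BLAST 2.17.0, 97% identity over at least 100 bases) and each library left out. Library pairs of a group without BRL replicate 1 differed by 1.69 to 4.20 chi-square units per degree of freedom. BRL replicate 1 differed from BRL replicates 2 and 3 by 89.1 and 76.8 such units. No pair therefore agreed within sampling noise. Replicate numbers were not used to pair the samples in the main fit.

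Symbols came from the supplied table of names; GENCODE M21, of another build, served for transcript lengths and overlaps, and no coordinates are given. The 10 genes and the lists were chosen with earlier results of these data known. Named from the lists are up to 3 genes past the threshold, the gene of smallest p and the gene of highest mean CPM of each, and the 3 genes most correlated with the member of smallest p; 1 gene that this rule names is not reported here. Gnai2, Gna11, Gnb2, Rap2b, Hcn2, Rapgef6 and Plce1 were named after their values were seen, and so were genes that overlap a member.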

Additional observations from a re-analysis of the deposited data

How the results depend on the processing

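None of the 8 tested genes passed in any alternative that tested it, 17 for 6 of them and 16 for Rapgef3 and Rapgef4, which a mean of at least 5 CPM leaves out. Counts of all genes past the threshold were 338 in the analysis reported, 592 with DESeq2, 945 with the edgeR exact test, 612 with no filter and 59 with limma on the RSEM fraction, and ranged from 32 to 2555 with a library left out. Other pathway genes past the threshold numbered 2 in the analysis reported, 1 with the RLE library factors, with limma-voom, on the RSEM fraction and on the authors' deposited log2 table (an alternative chosen after seeing the data), 4 with DESeq2, 5 with the exact test, and 1 to 12 with a library left out. With the replicate number as a block, 213 genes passed and 1 other pathway gene. Deviations of same-numbered libraries correlated at 0.10, −0.02 and −0.02, and those of differently numbered libraries at −0.11 to 0.13. With 3 libraries a group, this cannot tell whether the numbers pair the samples. The order by level per length kept 8 of 10 places with the longest transcript as length.

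Of 134 refits of the 8 genes, 21 changed sign, all in Gnas, Adcy3, Adcy9 or Rapgef3, and the cause was not tested. The log2 fold change of Adcy3 was 0.0014 with limma-voom, 0.019 with no filter, 0.0091 with counts thinned to the smallest library, 0.00018 with the replicate block, 0.046 on the fraction, and from −0.062 to 0.119 with a library left out. That of Rapgef3 was −0.0072 with limma-voom, −0.0034 when thinned, −0.112 on the fraction, −0.038 in the authors' deposited table, and from −0.136 to 0.362 with a library left out. That of Gnas was −0.00084 with a mean of at least 5 CPM, −0.0068 when thinned, −2.3e-05 in the authors' deposited table, and from −0.021 to 0.063 with a library left out. That of Adcy9 ranged from −0.268 to 0.065 with a library left out. Adcy7 had 1 to 6 counts a library, Rapgef4 7 to 18 and Rapgef3 15 to 43, which limits their precision.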

Other observations

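A cyclic AMP response element, the sequence TGACGTCA that reads the same on both strands, was sought in the RefSeq promoter windows (build GRCm38.p6, 250 bases before to 50 after the start). Windows were found for Gnas, Gnai1, Gnai3, Adcy3, Adcy5, Adcy7, Adcy9, Rapgef3 and Rapgef4, and none of their 15 windows held these letters, beside 1.79% of all 32851 windows. Among the other pathway genes 1 window held it, that of Rap1b, beginning 42 bases before the start. A search for 1 motif in a short window says nothing of binding.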
